A study of Homo sapiens with 2 samples.

Results

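The genes described here are MYC, its partner MAX and the proteins that compete with MYC for MAX or take part in the same network, namely MXI1, MXD3, MXD4, MNT, MLX and MGA. They were chosen by symbol, with earlier results of these data known, and 8 of 8 were found among the 10987 genes of the deposited table. GENCODE 29 places MYC (ENSG00000136997.17_3 in the table) on chromosome 8, MAX on 14, MXI1 on 10, MXD3 (ENSG00000213347.10_3) on 5, MXD4 (ENSG00000123933.16_3) on 4, MNT and MLX on 17 and MGA on 15. The RNA sequencing behind it compared 2 libraries of THP1, described in the labels as a monocytic leukaemia line. In 1 library the cells are labelled as treated with bort (bortezomib, an inhibitor of the proteasome) for 24 h, and in the other as untreated. Both libraries carry the same cell line in their labels, no dose is given in the labels, and no further agent is named. The deposited values are FPKM, the sequenced fragments of a gene divided by its transcript length and by the total mapped in that library. Because each condition has 1 library, no difference below has a replicate check, no p-value was computed, and every comparison is between 2 libraries rather than between conditions.

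The cell identity in the labels was checked first. Of 12 monocytic markers 5 were listed, with a summed 18.8 FPKM in the untreated and 44.1 FPKM in the bort library. CD14, CSF1R and MPO were not among the listed genes, and neither were HOXA9, HOXA10 and MEIS1, which MLL-AF9 leukaemia cells express. All 12 erythroid markers were listed, with a summed 4061 FPKM in the untreated and 3563 FPKM in the bort library. KLF1, an erythroid transcription factor, was at 147.1 and 17.4 FPKM. The markers therefore go against a monocytic line, so "the untreated library" and "the bort library" stand throughout for the libraries that carry those labels. The part of cell identity in the results was not tested. In bulk RNA, fewer cells of a type and less RNA per cell cannot be told apart.

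MYC is a basic helix-loop-helix leucine zipper transcription factor that drives growth, ribosome production and nucleotide synthesis, and it binds DNA only as a dimer with MAX. MXI1, MXD3, MXD4 and MNT also dimerise with MAX, bind the same E-box sequence CACGTG, and recruit SIN3 corepressors, so they are regarded as antagonists of MYC. MGA pairs with MAX inside a Polycomb-related repressor complex. MLX pairs with some of the MXD proteins and MNT, and also with the glucose sensors MLXIP (MondoA) and MLXIPL (ChREBP). MYC protein is short-lived and is destroyed by the proteasome, so its RNA and its protein need not move together when the proteasome is inhibited. Protein was not analysed here.

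The E-box was looked for in the promoters, because it is the site that dimers of the network recognise. RefSeq windows of GRCh38.p14, from 250 bases before to 50 bases after a gene start, were at hand for 7 of the 8 members, all but MYC. The motif CACGTG reads the same on both strands. It occurred in a window of MXD4, MNT and MLX, and in none of the windows of MAX, MXI1, MXD3 and MGA. Of the 35116 windows of all genes, 7.26% held it, and of the 8545 table genes with a window 13.4% held it in at least 1 window. The stretches around the E-box of the 3 members are given below, 5′ to 3′ on the strand of the gene, with the motif in capitals. The motif began 238 bases before the start of MXD4, 193 bases before that of MNT and 50 bases before that of MLX.

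MXD4 (chr4:2262320-2262359, minus strand): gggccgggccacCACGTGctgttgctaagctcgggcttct
MNT (chr17:2401226-2401275, minus strand): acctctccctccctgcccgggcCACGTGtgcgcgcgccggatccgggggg
MLX (chr17:42567028-42567077, plus strand): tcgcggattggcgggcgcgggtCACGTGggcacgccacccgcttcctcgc

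These matches describe letters in a window and do not show that a factor binds there.

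MYC itself was at 6.64 FPKM in the untreated and 5.69 FPKM in the bort library. The difference, bort minus untreated, was -14.3% of the untreated level, and -0.19 as a log2 fold change on the FPKM + 1 scale. On that scale 1 FPKM is added to both values before the ratio is taken, which makes the change of a gene with low FPKM look smaller than it is. On this scale 39.1% of the table lay below MYC. Its expression level was in the middle of the table, at rank 5118 of 10987 in the untreated and 5688 in the bort library. The 3 genes with the most similar pair of levels, by Euclidean distance of log2(FPKM + 1) over the 2 libraries, were WDR36, MAPK3 and INO80E. With only 2 libraries this likeness covers a pair of values and no more.

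MAX, the obligate partner, was at 9.82 FPKM in the untreated and 10.5 FPKM in the bort library, a log2 fold change of 0.09. MLX, its counterpart in the parallel branch, was at 13.2 and 14.4 FPKM, a log2 fold change of 0.12. Both partners were higher in the bort library, by 7.04% and 9.13% of the untreated level. MAX overlaps genes on the opposite strand, FNTB among them, and MLX overlaps PSMC3IP on the opposite strand, so their values carry some uncertainty if the reads were counted without regard to strand.

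**Figure D1:**
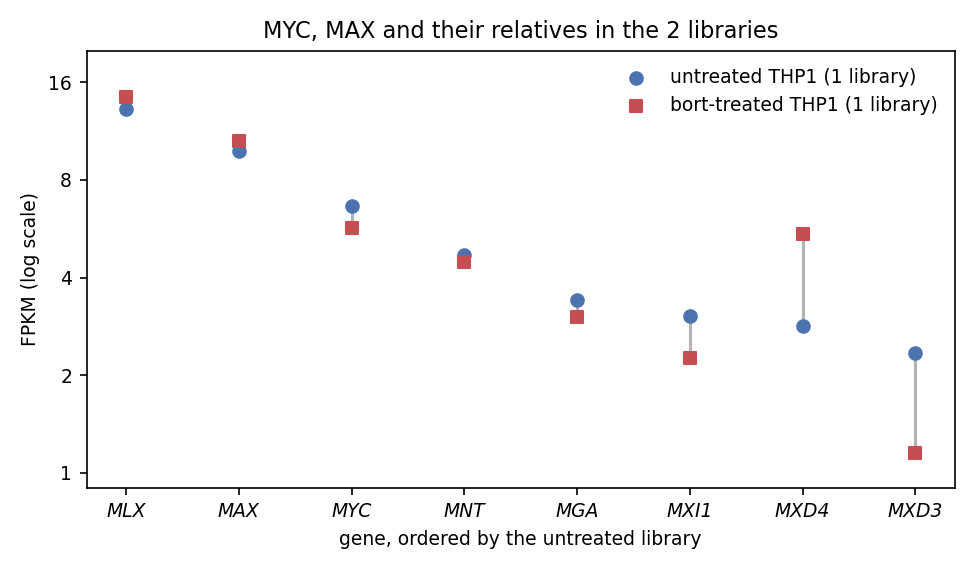
FPKM of the 8 members on a log scale, with a circle for the untreated library, a square for the bort library and a grey line between them, 1 library each. MLX, MAX and MYC were the highest in both libraries, while MXD4 and MXD3, lowest in the untreated library at 2.84 and 2.34 FPKM, moved apart to 5.46 and 1.15 FPKM.

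The log2 fold changes of MXD4 and MXD3 had opposite signs, except with the trend in GC content removed, which put MXD3 at 0.01. MXD4 was at 2.84 FPKM in the untreated and 5.46 FPKM in the bort library, 1.92-fold higher in the latter without a pseudocount. Its log2 fold change on FPKM + 1 was 0.75, and 1602 genes of the table had a larger one. MXD3, a family member otherwise linked to proliferating cells, was at 2.34 FPKM in the untreated and 1.15 FPKM in the bort library. This was a log2 fold change of -0.63 on FPKM + 1 and 2.02-fold lower without a pseudocount. The ratio of MXD4 to MXD3 inside a library, which no scaling of the library can alter, was 1.21 in the untreated and 4.73 in the bort library. MXD3 shares its strand with the overlapping gene RAB24 in GENCODE 29, so fragments could have been assigned to either.

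The other antagonists lay closer together. MXI1 was at 3.05 FPKM in the untreated and 2.27 FPKM in the bort library, a log2 fold change of -0.31. MNT, the most widely expressed antagonist, was at 4.68 and 4.47 FPKM, a log2 fold change of -0.06 that turned to 0.03 and 0.04 under other scalings of the libraries. MGA was at 3.41 and 3.03 FPKM, a log2 fold change of -0.13. By FPKM the order in the untreated library was MLX, MAX, MYC, MNT, MGA, MXI1, MXD4 and MXD3, and in the bort library MXD4 stood between MYC and MNT. Without replicates it cannot be said which neighbours in this order differ beyond their spread.

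On FPKM + 1, 0 of the 8 members passed a 2-fold difference in either direction, where 18.3% of all genes did. Their median log2 fold change was -0.09, against 0.0049 over all 10987 genes, with 3 members higher and 5 lower in the bort library. Upper quartile scaling and scaling to the total without the 20 most abundant genes made that 4 and 4, and with the trend in GC content removed it was 6 and 2. Without a pseudocount MXD3 passed 2-fold, with a log2 fold change of -1.02. All 8 members were at 1 FPKM or more in both libraries, so none of them entered the table through 1 library alone.

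The balance of the network was also read inside each library. The ratio of MYC to MAX was 0.676 in the untreated and 0.541 in the bort library. With the trend in GC content removed, however, MYC and MAX each had a log2 fold change of 0.17. The ratios themselves were not recomputed with that trend removed. The summed FPKM of the 5 antagonists MXI1, MXD3, MXD4, MNT and MGA was 16.3 in the untreated and 16.4 in the bort library, with the higher MXD4 and the lower values of the other 4 nearly cancelling. Relative to MYC this sum was 2.46 and 2.88, and relative to MAX it was 1.66 and 1.56. MXD4 alone went from 6.18% to 11.6% of the summed FPKM of the 8 members, and MXD3 from 5.09% to 2.46%. MYC accounted for 14.5% and 12.1%. These are ratios of RNA, and no replicate sets a spread on them.

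GC content moved with the fold changes across the whole table, with a Spearman rho of -0.47 over 10907 genes that have transcripts in GENCODE 29. Genes are not independent replicates, and every fold change comes from the same 2 libraries. The members ranged from 42.8% GC for MGA to 65.3% for MXD3. The genes were divided into 10 bins of near-equal size by GC content. In the richest bin, which holds MXD3, the median log2 fold change of 1091 genes was -0.61, next to -0.63 for MXD3. With the GC trend removed, the log2 fold change of MXD3 was 0.01. MXD4 was the opposite case. Its transcripts have 62.3% GC, and in its bin the median log2 fold change was -0.39, yet MXD4 was at 0.75, with 60 of the 1091 genes above it and 1030 below. Removal of the trend gave MXD4 a log2 fold change of 1.24, past 2-fold, where 7.22% of all genes were higher by 2-fold. MYC, with 58.7% GC, lay at -0.19 in a bin whose median was -0.31, and at 0.17 once the trend was removed. The sign of the difference for MYC therefore changed with this correction. The part of GC content in these differences was not tested beyond this.

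**Figure D2:**
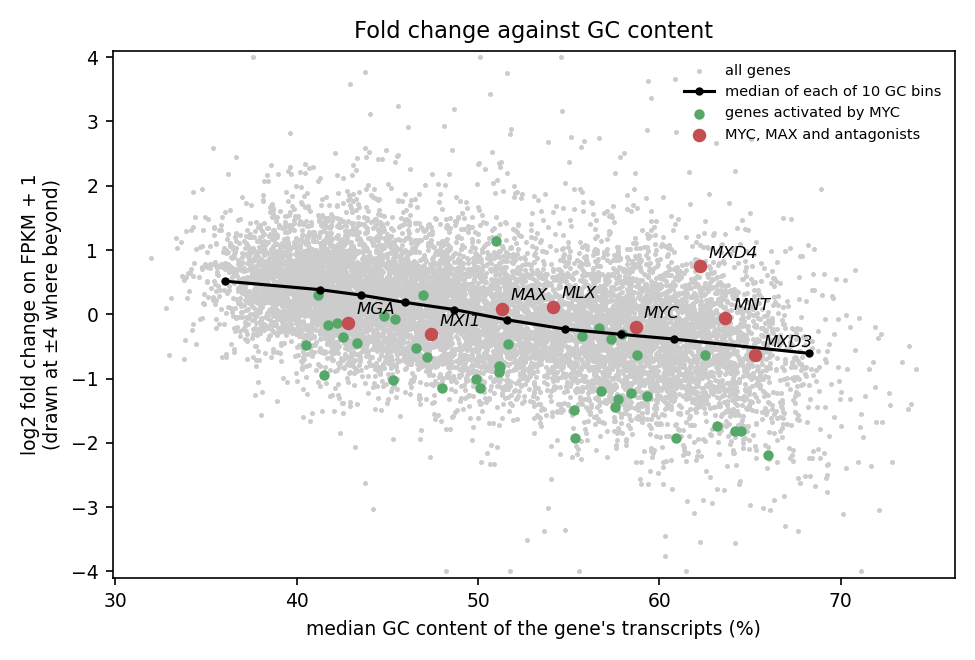
Log2 fold change on FPKM + 1 (bort minus untreated library) against the median GC content of a gene's transcripts in percent. Grey points are all genes, the black line joins the medians of 10 bins by GC content, green points are genes activated by MYC and red points the 8 members. The line falls from 0.51 to -0.61, MXD3 lies on it and MXD4 lies well above it.

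**Figure D3:**
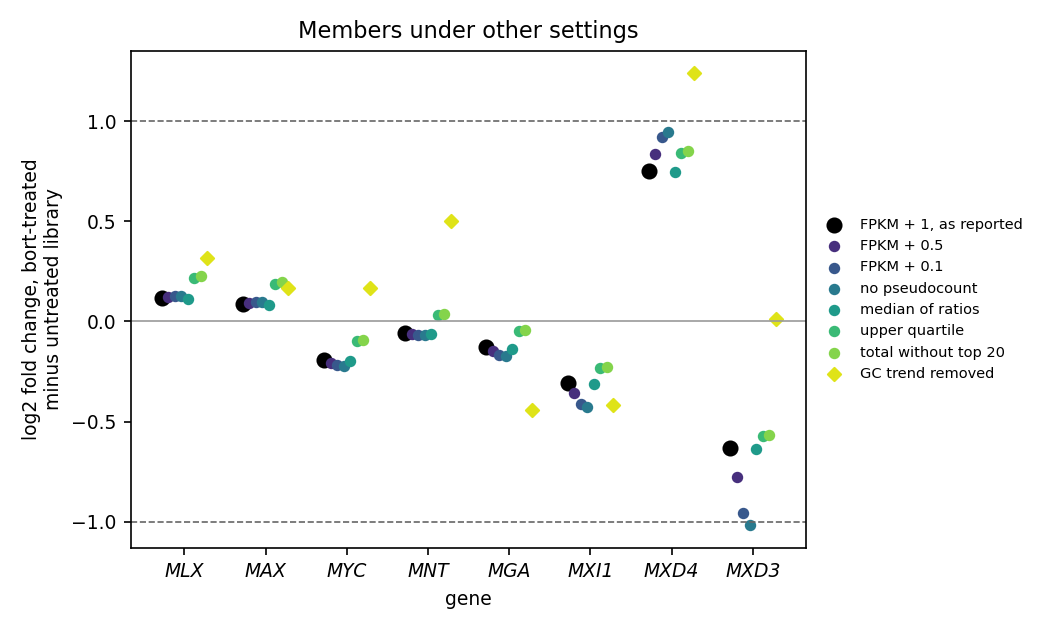
Log2 fold change of each member (bort minus untreated library) with FPKM + 1 in black and under 7 other settings in colour, with dashed lines at 2-fold. MXD4 was above 0 and MXI1 and MGA were below 0 under each setting shown, whereas MYC, MXD3 and MNT changed sign with the GC trend removed and MNT also under upper quartile scaling and under the total without the 20 most abundant genes. A change of pseudocount cannot alter a sign.

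The remaining members of the network were looked up next. Of MYCN, MYCL, MXD1, MLXIP and MLXIPL, 4 were listed, and MYCN was not. MLXIP, the partner of MLX that responds to phosphorylated glucose, was at 15.8 FPKM in the untreated and 8.99 FPKM in the bort library, a log2 fold change of -0.75. MXD1 was at 0.472 and 1.31 FPKM, a log2 fold change of 0.65. It reached the table only through the bort library, so it had to be higher there, and it overlaps SNRNP27 on its strand. MYCL was at 1.58 and 2.32 FPKM, a log2 fold change of 0.37. MLXIPL was at 1.35 and 1.59 FPKM, a log2 fold change of 0.14. None of these 4 passed 2-fold on FPKM + 1. In the untreated library MLXIP was higher than MLX, and in the bort library MLX was the higher.

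The genes of proteins that MYC and its antagonists recruit were counted against the table. Of 15 cofactors of MYC 1 passed 2-fold, RUVBL2, an ATPase of chromatin remodelling complexes, which went from 116.3 to 45.4 FPKM. For comparison, 10.2% of all genes were lower by 2-fold and 18.3% passed it in either direction. RUVBL2, once the GC trend was taken out, had a log2 fold change of -0.94, short of 2-fold. None of the 11 corepressors of the MXD proteins and MNT passed it. The most positive of them was SUDS3, a SIN3 subunit, from 10.4 to 18.0 FPKM.

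The partners of MGA split. Of 11 genes of its repressor complex 3 were higher by 2-fold, where 8.08% of all genes were. Another 2 were lower, where 10.2% of all genes were. RYBP, a subunit of variant Polycomb complexes, went from 2.23 to 6.61 FPKM. E2F6, a repressive E2F factor, went from 4.11 to 10.8 FPKM, and RNF2, a ubiquitin ligase for histone H2A, from 4.12 to 9.25 FPKM. TFDP1, the dimer partner of E2F factors, went from 37.7 to 17.2 FPKM, and EHMT2, a histone H3 lysine methyltransferase, from 18.8 to 8.55 FPKM. With the GC trend removed 0 of the 11 passed 2-fold. MGA itself had a log2 fold change of -0.13.

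Genes that control the stability of MYC protein were listed in 16 of 16 cases, with CIP2A found under its older symbol KIAA1524. Of these, 1 was higher and 3 were lower by 2-fold, where 8.08% of all genes were higher and 10.2% lower. Among the lower genes SKP2, an F-box protein that binds MYC, went from 12.0 to 5.47 FPKM, and STUB1, a chaperone-linked ubiquitin ligase, from 38.7 to 14.4 FPKM. FBXO32, another F-box gene, was at 0.112 and 1.77 FPKM and reached the table only through the bort library. After removal of the GC trend FBXO32 was the only one of the 4 past 2-fold, and SKP2 had a log2 fold change of -0.99.

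The level of MYC RNA was set beside genes commonly described as its targets. The lists were drawn up from general knowledge, with earlier results of these data known, so their direction is no independent evidence. Of 40 genes described as activated by MYC, 17 were lower by 2-fold in the bort library, 1 was higher and 22 lay between. The 17 are 42.5% of the list, where 10.2% of all genes were lower by 2-fold. The median log2 fold change of the list was -0.81, against 0.0049 over all genes, and 37 of 40 were below 0. With the GC trend removed, 39 of the 40 had a value, their median was -0.78, and 12 of them were lower by 2-fold, against 6.33% of all genes. These were 11 of the 17 and TFRC, which was at -0.95 before the removal and is also among the erythroid markers. MYC itself lay within 2-fold in every setting tried.

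The list is rich in genes of ribosome production, and some of them were among the 17 while others were not. NOP56, for example, was at 78.8 and 44.2 FPKM and WDR43 at 38.8 and 35.4 FPKM, neither past 2-fold (both were picked after their values were seen). UBTF, a transcription factor of RNA polymerase I, went from 44.5 to 10.9 FPKM. RRP9, a component of the U3 particle that processes ribosomal RNA, went from 81.7 to 20.9 FPKM. BOP1 and PES1 act together in the maturation of the large subunit. BOP1 went from 63.5 to 15.8 FPKM and PES1 from 59.1 to 21.2 FPKM. FBL, the methyltransferase of ribosomal RNA, went from 196.9 to 85.9 FPKM. NOP16, PPAN, TCOF1, MRTO4 and NOLC1, also nucleolar, had log2 fold changes between -1.74 for PPAN and -1.14 for NOLC1. PPAN overlaps P2RY11 and a read-through gene on its strand, which makes its value uncertain.

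The rest of the 17 have other roles. ODC1 and SRM, successive enzymes of polyamine synthesis, went from 185.5 to 82.9 FPKM and from 145.4 to 40.8 FPKM. CAD, which starts pyrimidine synthesis, went from 40.9 to 15.8 FPKM. SLC19A1, the folate carrier, went from 12.8 to 2.95 FPKM. NME1, a nucleoside diphosphate kinase, went from 98.5 to 48.5 FPKM, and it overlaps the read-through gene NME1-NME2. PA2G4, a growth-associated RNA-binding protein, went from 238.0 to 116.3 FPKM. TERT, the catalytic subunit of telomerase, went from 6.83 to 0.718 FPKM, and had the most negative log2 fold change of the list, -2.19. The 1 gene higher by 2-fold was EIF4A1, a helicase of translation initiation, from 26.4 to 59.5 FPKM, which overlaps the read-through gene SENP3-EIF4A1.

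Genes described as repressed by MYC were counted in the same way. Of 12 such genes 10 were listed, and CDKN2B and CEBPA were not. Of the 10, 5 were higher by 2-fold, where 8.08% of all genes were, and 0 were lower. Their median log2 fold change was 1.01, with 9 above 0 and 1 below. The 1 below was CDKN1C, an inhibitor of cyclin-dependent kinases, at 5.47 FPKM in the untreated and 3.21 FPKM in the bort library, a log2 fold change of -0.62. KLF6, a zinc finger factor, went from 2.65 to 31.5 FPKM, and NDRG1, a gene induced by stress, from 2.61 to 15.6 FPKM. BTG2, which restrains proliferation, went from 6.66 to 19.5 FPKM, and GADD45B from 1.13 to 3.54 FPKM. CDKN1A, the p21 inhibitor of cyclin-dependent kinases, went from 0.680 to 19.8 FPKM. Several of these genes are also known to be induced by stress independently of MYC. Whether MYC or stress has a part in these differences was not tested.

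**Figure D4:**
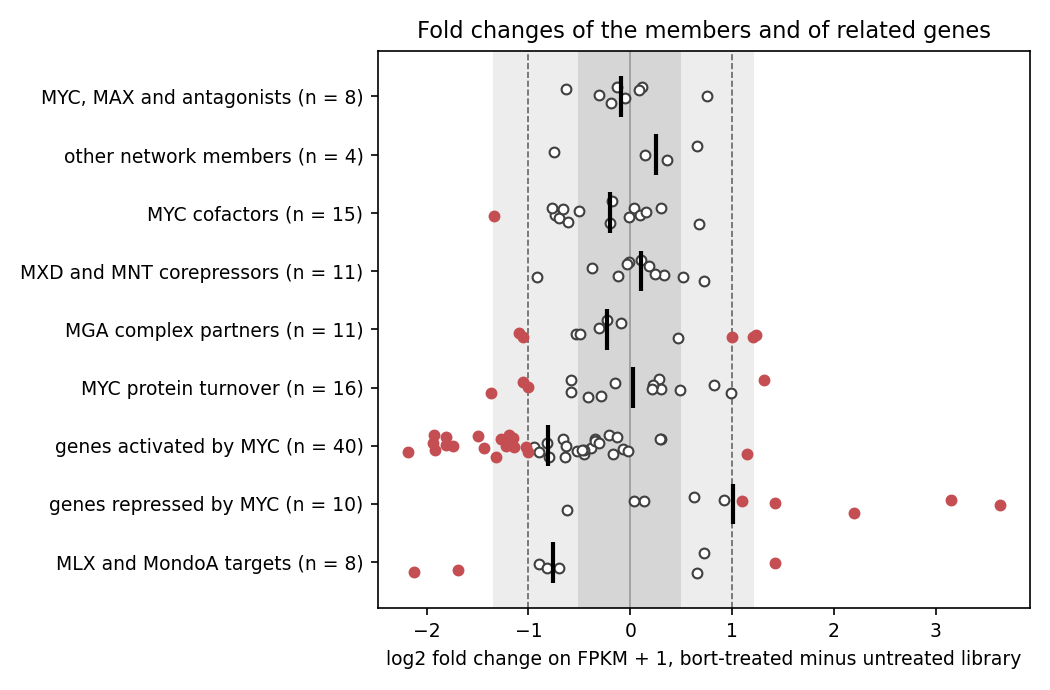
Log2 fold changes on FPKM + 1 (bort minus untreated library) of the 8 members and of 8 lists of related genes, 1 circle per listed gene, filled where past 2-fold (dashed lines), with a black bar at the median of each list. The dark and light grey bands hold the middle 50% and 90% of all genes. None of the 8 members passed 2-fold, where 18.3% of all genes did. Of 40 genes activated by MYC 17 were lower by 2-fold, where 10.2% of all genes were. Of 10 repressed by MYC 5 were higher by 2-fold, where 8.08% of all genes were. Members and lists were chosen with earlier results of these data known.

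The branch of MLX was examined through genes that MLX with MLXIP or MLXIPL is known to activate. Of 8 such genes 1 was higher and 2 were lower by 2-fold, where 8.08% of all genes were higher and 10.2% lower. HK2, 1 of the 8, is also in the list of genes activated by MYC. TXNIP, which curbs glucose uptake, was at 42.3 FPKM in the untreated and 70.8 FPKM in the bort library, a log2 fold change of 0.73. Its relative ARRDC4 was at 5.68 FPKM in the untreated and 16.9 FPKM in the bort library, and its log2 fold change was 1.42. PKLR, the liver and red cell pyruvate kinase, went from 43.4 to 9.16 FPKM, and FASN, the fatty acid synthase, from 119.4 to 36.3 FPKM. TXNIP and ARRDC4, the classical targets of MLXIP, had positive log2 fold changes while that of MLXIP was negative. Over the 8 genes the median log2 fold change was -0.76, with 3 above 0 and 5 below, so most had the sign of MLXIP.

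The promoters of target genes were searched in the same way. Of 33 genes activated by MYC that had a RefSeq window 20 held it (60.6%), against 13.4% of the table genes. Of the 14 that were lower by 2-fold 9 held it (64.3%), and of the other 19 it was in 11 (57.9%). The list was drawn up from general knowledge of MYC targets, so its share with the motif is no independent evidence. The stretches below were chosen to show an E-box in genes that differed between the libraries and in genes that did not pass 2-fold, with the motif in capitals. ODC1 and SRM were lower by 2-fold. Of the 2 windows of ODC1, 1 holds 2 such motifs and the other holds none, and the stretch shows 1 of them. CDK4 holds 3 such motifs in its window, 2 of which lie in the stretch shown, and was at 51.2 and 38.8 FPKM, and the HSPD1 stretch lies between HSPD1 and its neighbour HSPE1, which were at 244.6 and 241.3 FPKM and at 60.1 and 73.9 FPKM. CDK4, HSPD1 and HSPE1 were picked after their values were seen. ARRDC4 and PKLR are targets of MLX that went opposite ways with an E-box in a window of each. HSPD1 and PKLR each have 2 windows, of which 1 holds the motif.

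ODC1 (chr2:10448014-10448063, minus strand): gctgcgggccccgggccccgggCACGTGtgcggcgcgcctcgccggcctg
SRM (chr1:11060190-11060239, minus strand): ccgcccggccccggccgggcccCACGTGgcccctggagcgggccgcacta
CDK4 (chr12:57752499-57752548, minus strand): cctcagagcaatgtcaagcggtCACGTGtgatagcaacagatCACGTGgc
HSPD1 (chr2:197500335-197500384, minus strand): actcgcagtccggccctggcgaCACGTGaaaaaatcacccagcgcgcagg
ARRDC4 (chr15:97960471-97960520, plus strand): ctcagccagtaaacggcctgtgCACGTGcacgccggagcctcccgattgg
PKLR (chr1:155301608-155301657, minus strand): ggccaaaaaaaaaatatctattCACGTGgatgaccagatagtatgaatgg

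The motif began 29 bases before the start of ODC1, 199 bases before that of SRM, 216 and 196 bases before that of CDK4, 88 bases before that of HSPD1, 210 bases before that of ARRDC4 and 197 bases before that of PKLR. As with the members, a match is a run of letters and no evidence of binding in these cells.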

How the data were processed

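RNA sequencing of 2 libraries was analysed, 1 per condition. Reads were trimmed by the authors, placed on the genome with HISAT2 2.0.4 and built into transcripts with StringTie 1.2.3. The authors deposited FPKM, although the table is named for counts. The submitters' processing notes name GRCh37, and the annotation is not given in the sources used here. The methods describe a stranded KAPA kit and the labels a TruSeq kit, and whether strand was used is not given in the sources used here. Every gene reached 0.501 FPKM in at least 1 library, so genes low in both were not analysed here. A symbol on 2 identifiers (7 cases, no member) was taken at the first. Depth is unknown. With 15 (untreated) and 20 (bort) single-transcript genes under 0.2 FPKM, the step that 1 read makes could not be recovered, and no counting interval is given.

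Log2 fold changes were taken on FPKM + 1 and called at 2-fold, with no test. The summed FPKM were 210026 in the untreated and 221529 in the bort library. GC content is the median over the GENCODE 29 transcripts of a gene (99.3% of genes matched by identifier), and its trend was removed by lowess with a span of 0.3. GENCODE 29 and RefSeq are of GRCh38, so no coordinate of theirs was joined to the table. Members and lists were chosen with earlier results of these data known. Genes named are the members, the other network members, list genes past 2-fold (or, in a list with none, the most positive and the most negative), TXNIP, ARRDC4 and the 3 genes nearest to MYC. CDK4, HSPD1, HSPE1, HK2, TFRC, NOP56, WDR43, CDKN1C and the cell type markers are named outside it. Some genes that this rule names are not reported here. Scripts were tested on simulated data. The calculations ran in Python 3.11.15 with matplotlib 3.10.9, statsmodels 0.14.6, scipy 1.17.1, pandas 2.3.3 and numpy 2.4.6.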

Additional observations from a re-analysis of the deposited data

How the results depend on the processing

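No paired analysis was possible because there is a single library per condition, and no library was left out. The depth is unknown, so it cannot be said how much of the change of MXD3, MXD1 or FBXO32, all low in FPKM, is counting error. Unless stated, the cause was not tested.

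MXD4, MLX and MAX were higher and MXI1 and MGA lower in the bort library under all 8 other settings. Of these, the other pseudocounts and a filter at 1 FPKM in both libraries could not change the sign of a member. Only the scalings and the removal of the GC trend could. MYC turned to 0.17 and MXD3 to 0.014 with the GC trend removed. MNT turned to 0.50 with that trend removed, to 0.033 with upper quartile scaling and to 0.039 with the total without the 20 most abundant genes. The members past 2-fold were 0 as reported, 1 without a pseudocount (MXD3), 1 with the GC trend removed (MXD4) and 2 at 1.5-fold. The ratios inside a library kept their direction when 1 FPKM was added to both sides. For MYC to MAX, antagonists to MYC and MXD4 to MXD3 this could not reverse it, because numerator and denominator moved in opposite directions. Summing the identifiers of a symbol could not alter any ratio, because no member has 2 identifiers. Removal of the GC trend was not applied to the ratios.

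The number of genes higher by 2-fold, 888, was 1576 with a pseudocount of 0.1 FPKM, 1654 without one, 2282 at 1.5-fold and 92 at 4-fold. The number lower, 1125, was 1708 without a pseudocount, 690 with the GC trend removed, 2378 at 1.5-fold and 135 at 4-fold. The higher genes were 44.1% of those past 2-fold, and 54.4% with the total without the 20 most abundant genes.

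For the lists, the fewer calls at 4-fold and more at 1.5-fold follow from the threshold. At 1.5-fold the number past it was 2 of the other network members, 7 cofactors, 2 corepressors, 8 targets of MLX and MondoA, and 1 lower gene among those repressed by MYC. At 4-fold it was 0 cofactors, 0 partners of MGA, 0 turnover genes, 1 target of MLX and MondoA, 0 higher and 1 lower of the genes activated by MYC, and 3 higher of those repressed by it. With a pseudocount of 0.1 FPKM or none, 1 other network member (MXD1) and 1 corepressor passed 2-fold. With the GC trend removed 0 cofactors, 0 partners of MGA and 1 turnover gene did. The partners of MGA past 2-fold were 3 with upper quartile scaling and 3 with the total without the 20 most abundant genes. TFDP1 and EHMT2 fell short of it under both scalings. The genes activated by MYC lower by 2-fold stayed within 1.5 times of 17 under the pseudocounts, the filter, the scalings and the GC trend.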
